A study of Mus musculus with 12 samples.

Results

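The common gamma chain cytokine receptors are the chains that bind interleukins 2, 4, 7, 9, 15 and 21 on lymphocytes. They were taken as the rows of the CD8 T cell table with the symbols Il2ra, Il2rb, Il2rg, Il4ra, Il7r, Il9r, Il15ra and Il21r, and all 8 were found among its 24421 genes. All 8 also passed the low-mean filter that decides which genes get an adjusted p. The study behind them is about H1 linker histones, proteins that bind nucleosomes and compact chromatin, and their loss in lymphocytes. RNA with poly(A) tails was sequenced from 500000 sorted cells per sample, taken from the spleens of C57BL/6 mice, in 6 groups of 2 animals. Only the CD8+ splenic T cells are analysed here: a wild-type (WT) group and a group with the genotype cTKO, each with 1 female and 1 male. The labels name no allele, Cre driver, age or treatment behind the term cTKO. From what is known of the study it is a conditional triple knockout of the H1 genes Hist1h1c, Hist1h1d and Hist1h1e.

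These receptors join 1 or 2 private chains with the shared gamma chain, which Il2rg encodes. Binding of the cytokine brings together the kinases Jak1 and Jak3 on the chains, and these activate Stat5, or Stat6 and Stat3 for some of the cytokines. In CD8 T cells the receptor for interleukin 7 is known for the survival of naive cells, and the interleukin 15 receptor, which uses the beta chain Il2rb, for the upkeep of memory cells.

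The promoters of Il2rg and Il15ra are shown because their RNA changed, and that of Il7r because it alone among the member promoters searched holds a motif for the Stat proteins these receptors activate. Windows of 250 bases before a RefSeq transcription start on GRCm38.p6 were searched, and the part of each that lies before the RefSeq gene record is printed, 5′ to 3′ on the strand of the gene. Capitals mark matches to the motifs searched on both strands: TTCNNNGAA (the GAS element that Stat proteins bind), CCGGAAG (an ETS site), TGTGGT (a Runx site), GTAAACA (a Foxo site) and AGGTGTGA (a T-box site).
Il2rg, chrX:101268256-101268505, minus strand: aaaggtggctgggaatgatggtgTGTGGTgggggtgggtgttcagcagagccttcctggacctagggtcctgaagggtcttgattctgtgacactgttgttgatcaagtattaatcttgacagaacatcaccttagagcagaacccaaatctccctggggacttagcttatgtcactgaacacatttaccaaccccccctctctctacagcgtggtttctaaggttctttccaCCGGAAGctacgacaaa
Il15ra, chr2:11705043-11705171, plus strand: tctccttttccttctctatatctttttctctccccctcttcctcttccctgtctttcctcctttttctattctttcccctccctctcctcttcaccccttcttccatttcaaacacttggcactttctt
Il7r, chr15:9529942-9530126, minus strand: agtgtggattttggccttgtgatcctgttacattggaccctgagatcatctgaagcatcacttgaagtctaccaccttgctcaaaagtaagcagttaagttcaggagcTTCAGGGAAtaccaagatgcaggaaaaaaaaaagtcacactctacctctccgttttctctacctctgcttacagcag
The Il2rg stretch holds an ETS site and a Runx site, the Il7r stretch the GAS element, and the Il15ra stretch no match. The window of 1 of the 2 Il15ra starts has an ETS site among the 121 bases that already lie inside the gene record, which are not printed. The windows of Il21r and Il9r reach into their gene records too, by 177 and 250 bases, as does that of Il7r by 65. The Runx and Foxo matches of Il21r and the Runx match of Il9r fall inside the gene records. No promoter sequence was available for Il2rb, so its promoter was not searched for any of the motifs. Promoter sequences were found for the other 7 of the 8 members, with 8 starts in all. Over those 8, the ETS site is in 2, the Runx site in 3, the GAS element in 1 and the Foxo site in 1, while the T-box site has no match in these windows. Among 32851 mouse promoters of the same length, 6.91% hold the ETS site, 14.0% the Runx site, 7.02% the GAS element, 3.17% the Foxo site and 1.12% the T-box site. The windows of the 3 stretches have few CpG pairs, with 3 for Il2rg, 2 for Il15ra and 1 for Il7r, beside a median of 6 over all promoters and quartiles of 2 and 16. Il4ra, with 17, lies above the upper quartile. The window of the other Il15ra start holds 12.

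In cTKO CD8 T cells the beta chain gene Il2rb and the interleukin 15 receptor alpha gene Il15ra rose and the shared chain gene Il2rg fell. In the authors' deposited table Il2rb was 2.85-fold higher in cTKO, Il15ra 2.10-fold higher and Il2rg 2.41-fold lower. These 3 of 8 members passed the authors' DESeq2 test at an adjusted p under 0.05, where 13.4% of the 12972 tested genes did. In the 2 directions apart, 2 members were called higher, beside 9.77% of all genes, and 1 lower, beside 3.61%. Il7r, the interleukin 7 receptor alpha chain, stood 1.69-fold higher and just missed the threshold. The median log2 fold change of the 8 was 0.53, with 5 above 0, and that of all tested genes was 0.04. For the 5 members whose mean reached 5000 the median was −0.29, with 2 above 0. It was −0.28 for all 537 tested genes of that level, so at that level the members did not stand apart. With 2 animals a group the spread of a single gene is poorly known. The p-values rest on these animals and on a spread that DESeq2 draws towards a trend over all genes.

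**Figure D1:**
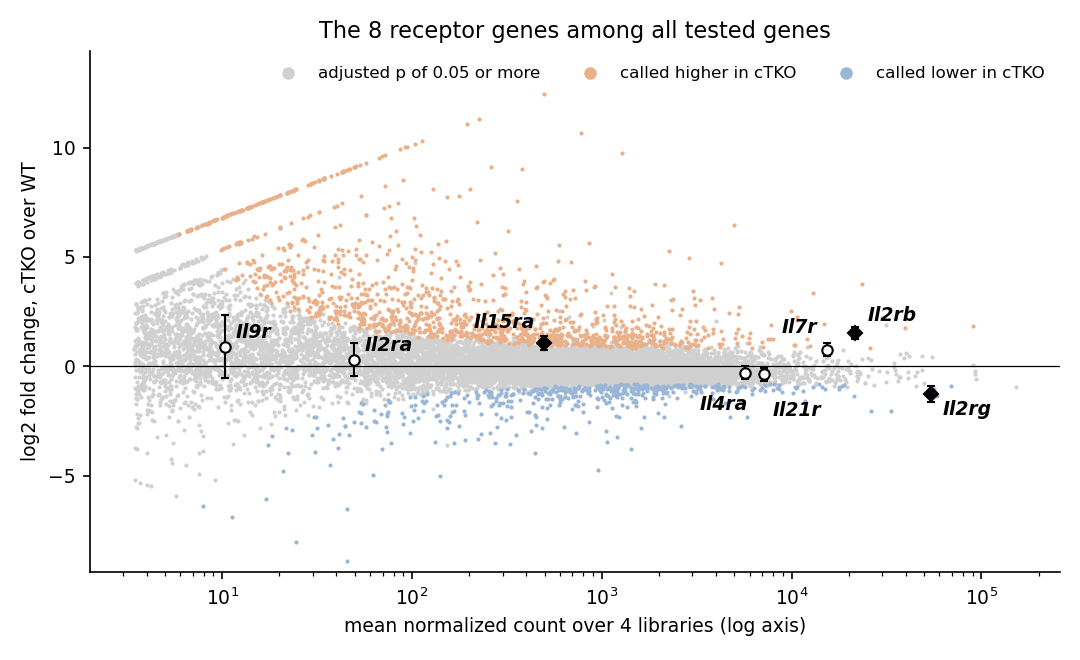
Log2 fold change of cTKO over WT against the mean normalized count of each tested gene (log axis), from the authors' deposited table, with the 8 receptor genes in black (filled diamonds where called, bars ± SE). Il2rb lies above and Il2rg below most genes of like mean, and Il9r and Il2ra carry the longest bars.

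The table holds no column per animal, and the reads of each library were recovered from its means, fold changes and SEs. Values below are those reads divided by the library's size factor (normalized reads). Libraries held 12259299 to 19978093 recovered reads, and the female library was the larger in both genotypes, so sex and size cannot be told apart. Hist1h1c, Hist1h1d and Hist1h1e had 41, 5 and 64 reads in the WT female and 56, 11 and 112 in the WT male library, and 0 in both cTKO libraries. The 10 genes of CD8 T cell identity (the CD3 chains, Cd8a, Cd8b1, Lck and others) were all detected, and 0 passed the DESeq2 test (1 lower at an unadjusted p under 0.05, 0 by limma). Their normalized reads summed to 183934 and 169600 for the WT female and male, against 108394 and 159809 for the cTKO female and male. The cTKO female library stood apart from the other 3. It alone held the single read of 1165 genes, against 97 to 156 genes for each of the others, and its Xist reads were 4871 against 479 in the WT female. Without it, limma on the recovered reads gave log2 differences of 1.46 for Il2rb, 1.08 for Il15ra, 0.71 for Il7r and −0.93 for Il2rg, with adjusted p-values of 0.259, 0.243, 0.376 and 0.575. In bulk RNA, fewer cells of a type and less RNA per cell cannot be told apart.

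Levels of different chains were compared as normalized reads per kilobase of exon. Il2rg was by far the highest, with 42118 in the female and 21803 in the male WT library and 10594 and 15893 in the cTKO libraries. By its mean level it had rank 11 among 17408 genes with a length. In WT the next 3 chains overlapped: Il2rb had 2418 and 2794, Il7r 2688 and 2236 and Il21r 2063 and 2774 normalized reads per kilobase. In cTKO they no longer overlapped: Il2rb stood at 7705 and 7163, Il7r at 4310 and 4011 and Il21r at 1794 and 1976. Il4ra came next in both genotypes, with 935 and 1155 in WT and 953 and 757 in cTKO. Il15ra was far lower, at 69.5 and 75.1 in WT and 151 and 153 in cTKO. Il2ra and Il9r were near the bottom, with ranks of 10450 and 12043 among the same genes. Their 2 cTKO ranges overlapped, from 3.26 to 15.8 for Il2ra and from 0.251 to 5.19 for Il9r.

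**Figure D2:**
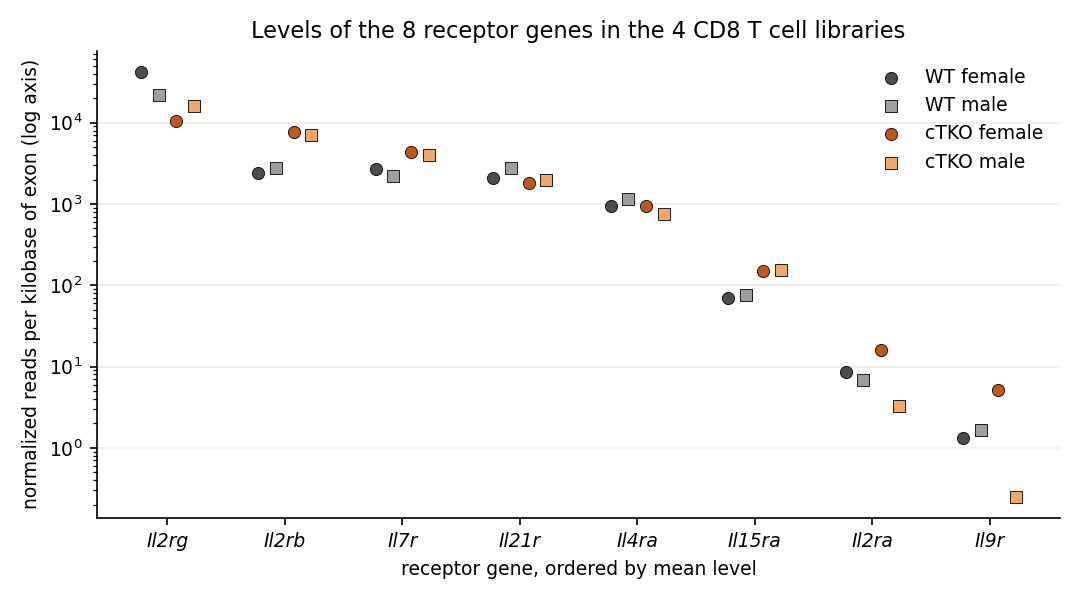
Normalized reads per kilobase of exon (log axis) of the 8 receptor genes in each of the 4 libraries, ordered by mean level. Il2rg is the highest gene in every library, and both cTKO libraries lie above both WT libraries for Il2rb, Il7r and Il15ra.

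Il2rg (chrX:101264385-101268255, minus strand, GRCm38.p6) encodes the chain that the receptors of this family share. It had 100535 normalized reads in the WT female, 52043 in the WT male, 25287.5 in the cTKO female and 37937 in the cTKO male library. The cTKO libraries were both lower than either WT library, which was so for 28.3% of 12956 tested genes with recovered reads. The authors' deposited table gives a log2 fold change of −1.27 (SE 0.37) with a DESeq2 adjusted p of 0.00751. The WT libraries were themselves 1.93-fold apart. Among 523 genes whose mean reached 5000, 11 had WT libraries at least that far apart, Il2rg included. Within each sex the log2 difference was −1.99 for the females and −0.46 for the males. The call was lost in a limma fit on the recovered reads (−1.22, adjusted p = 0.0818), which called 9.57% of 12956 genes and 1 of the 8 members, Il2rb. With a sex term that fit called the gene (adjusted p = 0.00420). The SE there was 0.346, beside 0.354 for Il2rb, whose female and male differences lay far closer together. It thus came mostly from a trend over genes and hardly from the spread of Il2rg itself. Without a sex term, limma gave −0.75 without the female WT library and −1.70 without the male WT library. The gene Gm20489 overlaps Il2rg on the same strand in GENCODE M21, so reads in their common exons could belong to either. Gm37881 likewise overlaps Il2ra, and Gm44876 overlaps Il4ra on the opposite strand.

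Il2rb (chr15:78479256-78511621, minus strand) encodes the beta chain that the receptors for interleukins 2 and 15 share. Its normalized reads were 10365 and 11977 in the WT female and male and 33033 and 30709 in the cTKO female and male library. The gap between the genotypes was far wider than that between animals of 1 genotype, which differed 1.16-fold in WT and 1.08-fold in cTKO. The authors' deposited table gives a log2 fold change of 1.51 (SE 0.29) with a DESeq2 adjusted p of 4.61e-06. The log2 difference was 1.67 between the females and 1.36 between the males. Limma called the gene too (adjusted p = 0.00900), but with 1 library left out the call was kept only without the male WT library, where the log2 difference was 1.62 (adjusted p = 0.0389). Without the female WT, the female cTKO or the male cTKO library the limma values were 1.41, 1.46 and 1.57, with adjusted p-values of 0.0847, 0.259 and 0.112.

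Il15ra (chr2:11705172-11733985, plus strand) encodes the high-affinity chain that binds interleukin 15 and presents it to cells with the beta and gamma chains. It had 309 and 334 normalized reads in the WT female and male and 671 and 679.5 in the cTKO female and male library. The animals of 1 genotype lay within 1.08-fold of each other in WT and 1.01-fold in cTKO, and the groups did not overlap. The authors' deposited table gives a log2 fold change of 1.07 (SE 0.33) with a DESeq2 adjusted p of 0.0140. The limma fit gave the same 1.07 and an adjusted p of 0.0505, on the other side of the threshold. With 1 library left out limma gave 1.02 to 1.13, with adjusted p-values from 0.112 to 0.428. With a sex term it called the gene (adjusted p = 0.0297).

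Il7r (chr15:9506159-9529941, minus strand) encodes the private chain for interleukin 7. Normalized reads were 12534 and 10427 in the WT female and male and 20098 and 18704 in the cTKO female and male library. The cTKO libraries were both higher than either WT library, as for Il2rb and Il15ra, beside 31.3% of all tested genes with recovered reads. In the authors' deposited table the log2 fold change was 0.76 (SE 0.29) with a DESeq2 adjusted p of 0.0604, so the gene was not called. Genes whose mean reached 100 had a median log2 fold change of −0.10. With fold changes taken relative to that median, Il7r had 0.86 and passed with an adjusted p of 0.0261. Limma did not call it (0.76, adjusted p = 0.116, or 0.129 with a sex term). With 1 library left out limma gave 0.63 to 0.89.

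Il4ra (chr7:125552271-125579474) and Il21r (chr7:125603252-125634397) are neighbours on the plus strand of chromosome 7 and encode the private chains for interleukins 4 and 21. Il4ra had 5613 and 6932 normalized reads in WT and 5718 and 4546 in cTKO, female before male, and the groups overlapped. Il21r had 6858 and 9221 in WT and 5964 and 6567 in cTKO, with both cTKO libraries below both WT ones. Neither passed the DESeq2 test of the authors' deposited table: for Il4ra it gives −0.29 on the log2 scale (SE 0.30, adjusted p = 0.586) and for Il21r −0.36 (SE 0.30, adjusted p = 0.474).

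Il2ra (chr2:11642792-11693194, plus strand) encodes the alpha chain that completes the high-affinity interleukin 2 receptor of activated T cells and regulatory T cells. It had 60 and 34 reads in the WT female and male and 109 and 15 in the cTKO female and male library. After division by the size factors these were 49.4, 39.3, 90.3 and 18.6, so the cTKO libraries lay on either side of the WT libraries. Il9r (chr11:32187544-32205283, minus strand), the private chain for interleukin 9, had 8, 7, 31 and 1 reads in the same order. The authors' deposited table gives 0.31 (SE 0.77, DESeq2 adjusted p = 0.840) for Il2ra and 0.90 (SE 1.44, adjusted p = 0.740) for Il9r. The cTKO libraries were 4.84-fold apart for Il2ra and 20.7-fold for Il9r, and SEs of this size leave all but large changes beyond detection.

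**Figure D3:**
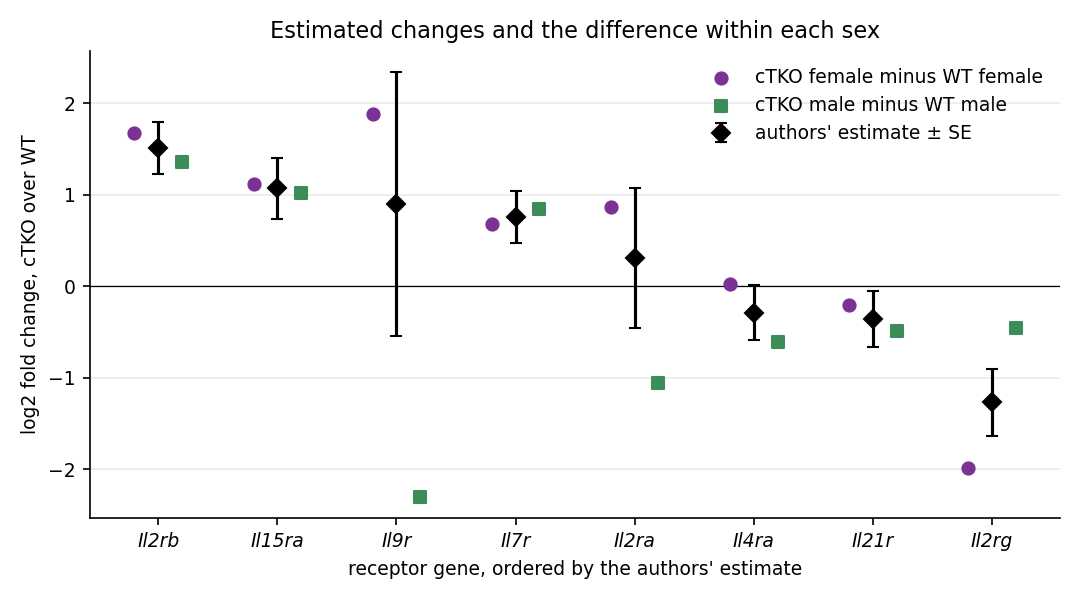
Log2 fold change of each receptor gene: the authors' estimate with its SE, and the cTKO minus WT difference within the females and within the males (normalized reads plus 0.5). The 2 sexes lie close together for Il2rb, Il15ra and Il7r, lie on opposite sides of 0 for Il2ra, Il9r and, barely, Il4ra, and differ in size for Il2rg.

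The private chains were also set against the shared chain in the same library, as the ratio of their levels per kilobase. Il2rb stood at 0.0574 and 0.128 of Il2rg in the WT female and male and at 0.727 and 0.451 in the cTKO female and male. Il7r moved from 0.0638 and 0.103 to 0.407 and 0.252, and Il15ra from 0.00165 and 0.00344 to 0.0142 and 0.00962. The ratios of these 3 chains did not overlap between the genotypes, whereas those of Il4ra, Il21r, Il2ra and Il9r did. Il2rg, the divisor, was itself lower in both cTKO libraries. The share of all genes whose ratio to Il2rg separates in this way was not computed. All 7 other chains together summed to 0.194 and 0.415 of the Il2rg level in WT and to 1.41 and 0.885 in cTKO. Il2rg therefore made up 83.7% and 70.7% of the summed level of the 8 genes in WT and 41.5% and 53.1% in cTKO. These ratios rest on the same reads as the fold changes and add no test. Among the private chains, Il2rb over Il7r was 0.899 and 1.25 in WT and 1.79 in both cTKO libraries. Il15ra over Il2rb was 0.0287 and 0.0269 in WT and 0.0196 and 0.0213 in cTKO, so the alpha chain was lower against the beta chain in cTKO.

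**Figure D4:**
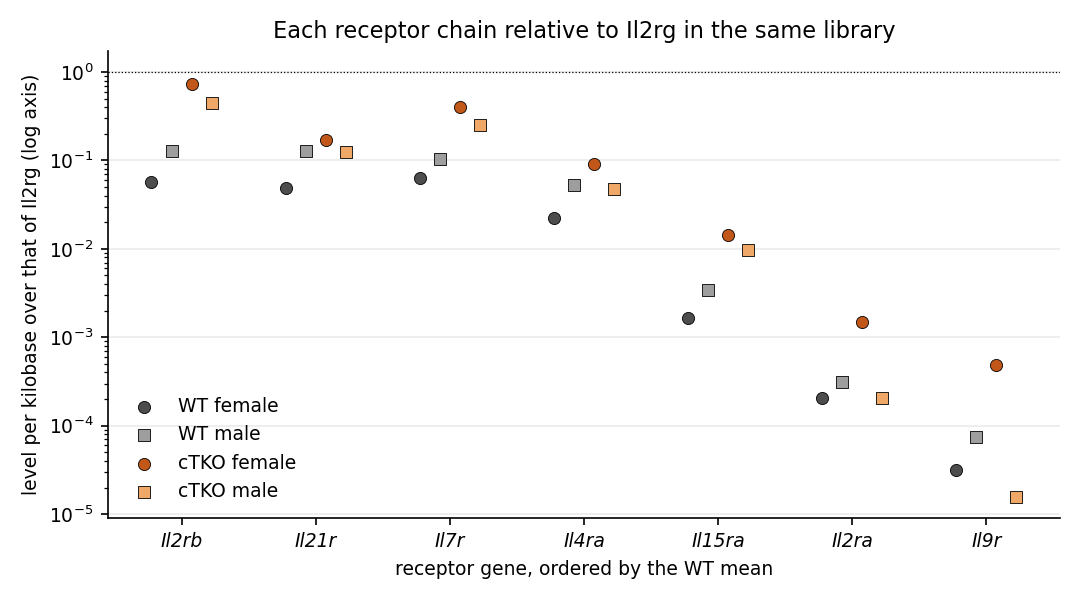
Level per kilobase of each receptor chain divided by that of Il2rg in the same library (log axis, dotted line at 1). Both cTKO libraries lie above both WT libraries for Il2rb, Il7r and Il15ra, with Il2rb highest at 0.727 in the cTKO female.

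The genes with library patterns nearest to those of the called members were taken from 9253 genes whose mean reached 100, by the Euclidean distance of centred log2 normalized reads (plus 0.5) over the 4 libraries. For Il2rb they were Fhl2 at 0.104, Akap1 at 0.119 and Rgs1 at 0.130. For Il2rg they were Hs6st1 at 0.132, Ctsc at 0.167 and Cyhr1 at 0.174. For Il15ra they were Rnf138 at 0.0828, Odc1 at 0.0929 and Pld2 at 0.101. With 4 libraries this likeness is a description of these samples.

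Among RefSeq genes within 100000 bases of the members, 27 others were tested. By the authors' DESeq2 test 4 were called higher and 0 lower. The counts were 5 and 3 at an unadjusted p under 0.05, and 3 and 0 by limma. Over all tested genes DESeq2 called 13.4%, with 9.77% higher and 3.61% lower, so the share among the neighbours was close to that. Kctd17 and C1qtnf6, on either side of Il2rb, rose from 27 and 20 to 277 and 136 reads and from 23 and 10 to 166 and 59 reads. Spef2, beside Il7r, rose from 109 and 68 to 290 and 221 reads. Med12, beside Il2rg, was called higher while Il2rg was called lower, with 729 reads in the WT female, 429 in the WT male, 2670 in the cTKO female and 468 in the cTKO male, so the reads of the cTKO female set that difference. Il2ra and Il15ra lie 11978 bases apart on chromosome 2, and only Il15ra was called. Rac2, the most abundant neighbour of Il2rb, had a log2 fold change of −0.02 (adjusted p = 0.977).

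Other genes of the pathway came from lists chosen with earlier results of these data known. Among the 3 partner chains that pair with a member for other cytokines (Il13ra1, Il13ra2, Crlf2), 2 were tested and 0 were called by DESeq2, at an unadjusted p under 0.05 or by limma. Of 8 genes for the cytokines themselves and Tslp, 4 were at a mean of 0 (Il9, Il13, Il21, Tslp) and 3 were tested, with 0 called by DESeq2 (1 higher at an unadjusted p under 0.05, 0 by limma). Il7 went from 0 and 3 to 22 and 13 reads without passing the test (DESeq2 adjusted p = 0.140), Il15 had 12 and 9 against 13 and 8, and Il2 had 11 and 6 against 15 and 0.

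Of the 8 kinases and Stat proteins listed as relays of the receptors, 1 fell and 0 rose, beside 3.61% and 9.77% of tested genes. At an unadjusted p under 0.05 the counts were the same, and limma called 0 in either direction. In the authors' deposited table Jak1, the gamma chain's own kinase Jak3 and both Stat5 genes did not pass: Jak1 had a log2 fold change of 0.45 (SE 0.29, DESeq2 adjusted p = 0.313), Jak3 −0.28 (SE 0.30, 0.598), Stat5a 0.01 (SE 0.32, 0.986) and Stat5b −0.21 (SE 0.34, 0.745). Stat6, the relay of the interleukin 4 receptor, fell by 1.11 on the log2 scale (SE 0.32, adjusted p = 0.00647). It had 16084 and 7502 reads in the WT female and male and 6270 and 4010 in the cTKO female and male. Jak2, Stat3 and Tyk2 had 0.11, −0.53 and 0.36 and did not pass. The median log2 fold change of the 8 relays was −0.097.

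Genes known to be induced through Stat5 or by these cytokines rose in 6 of 16 cases and fell in 0. At an unadjusted p under 0.05 these counts were 7 and 1, and by limma 5 and 0. Over all tested genes DESeq2 called 9.77% higher and 3.61% lower. The list's median was 0.36 on the log2 scale, with 11 of 16 above 0. Cish, a Stat5-induced inhibitor of interleukin 2 signalling, had 149 and 130 reads in the WT female and male and 2283 and 1188 in the cTKO female and male library. Its log2 fold change in the authors' deposited table was 3.63 (SE 0.34, DESeq2 adjusted p = 1.80e-24). Socs2, a second inhibitor of the same family, went from 28 and 8 to 137 and 338 reads, with 4.02 on the log2 scale (SE 0.65, adjusted p = 4.30e-08). The Socs2 value depended on the libraries: limma gave 3.85 with all 4, 4.49 and 3.22 without the female and the male WT library, and 4.79 and 2.91 without the female and the male cTKO library. The other 4 were the protease gene Gzmb (3.22), the kinase gene Pim1 (1.98) and the survival genes Bcl2l1 (1.05) and Bcl2 (0.99). For Gzmb limma gave 3.35 with all 4 libraries, and 3.98 and 2.72 without the female and the male WT library. Among the genes of the list that did not pass, Myc had −0.12, Ccnd2 0.03, Mcl1 0.71 and Pim2 −0.59. The 7 feedback inhibitors share Cish and Socs2 with this list. Of the other 5, the phosphatase gene Ptpn6 fell by 0.93 (SE 0.30, adjusted p = 0.0223), and Socs1, Socs3, Sh2b3 and Ptpn2 did not pass.

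Transcription factors known to act on the receptor genes or on the T cell states in which they are high rose in 6 of 16 cases and fell in 1. These counts were 8 and 1 at an unadjusted p under 0.05, and 4 and 1 by limma. Among all tested genes 9.77% were called higher and 3.61% lower by DESeq2. Prdm1 rose from 93 and 56 to 1585 and 549 reads, and Id2 from 3503 and 2575 to 19239 and 14502. The T-box factors Eomes and Tbx21, known regulators of Il2rb, had log2 fold changes of 2.08 and 1.71 (SE 0.32 and 0.29, DESeq2 adjusted p-values of 4.18e-09 and 1.86e-07). Runx1 and Nfil3 were called higher with smaller changes of 1.34 and 1.13, but limma called neither (adjusted p = 0.0913 and 0.0736). For Runx1 the log2 difference was 2.05 between the females and 0.46 between the males. Id3 fell from 2144 and 2234 to 114 and 293 reads, and its limma value of −3.52 became −2.55 without the female and −4.49 without the male cTKO library. Foxo1, a known activator of Il7r, had −0.09 (adjusted p = 0.896), and Gfi1, a known repressor of it, −0.61 (adjusted p = 0.296). Gabpa, an ETS factor known to act on Il7r, had 0.67 (adjusted p = 0.175).

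Of 40 receptor genes for other cytokines, 30 were tested, and 9 were called higher and 2 lower by the authors' DESeq2 test. The shares over all tested genes were 9.77% and 3.61%. The list median was 0.51 on the log2 scale, beside the 0.53 of the 8 members. The highest changes by p were in Il12rb2, which rose from 78 and 62 to 1106 and 930 reads, and Il18rap, from 1106 and 683 to 6525 and 2594. Il10ra, Tgfbr1 and Il18r1 rose by 1.96, 1.40 and 1.29 on the log2 scale. Il20ra had 0 reads in both WT libraries and 94 and 8 in cTKO, at least 35.2-fold higher against a floor of 3 reads over the WT libraries. With the cTKO male library alone the limit is 6.89-fold, and with the cTKO female alone 54.0-fold. The chains called lower were Ifngr2, which fell by 2.82 to 74 and 145 reads, and Il6st, the shared chain of the interleukin 6 family, which fell by 1.35. For Ifngr2 limma gave −3.00, and −2.23 and −3.77 without the female and the male cTKO library.

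**Figure D5:**
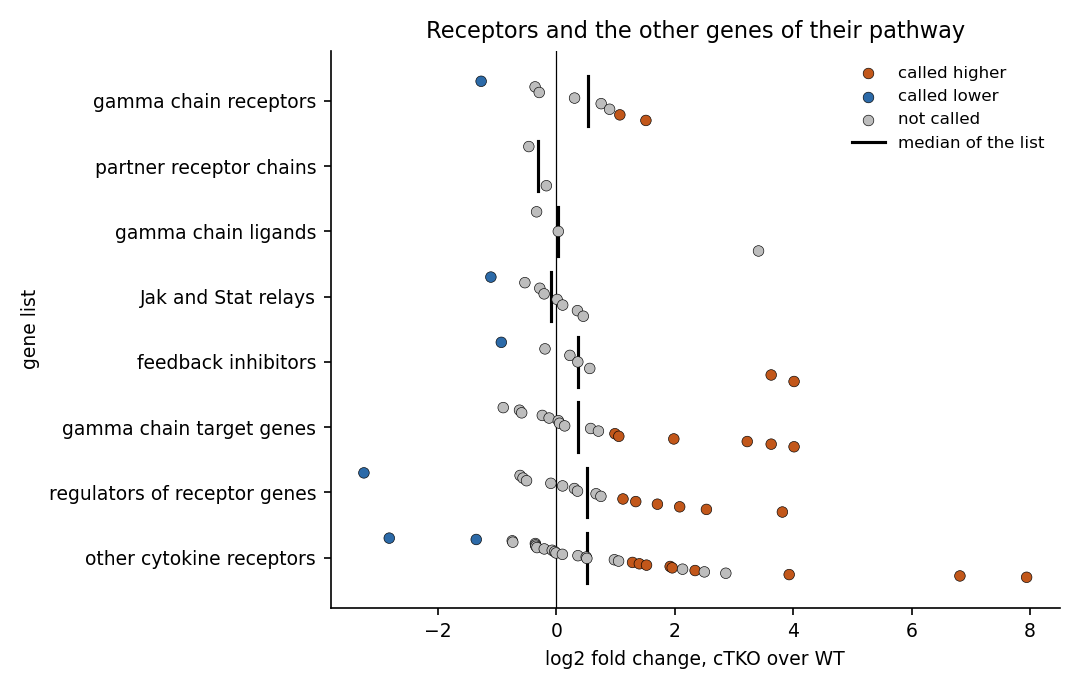
Log2 fold change of cTKO over WT (authors' deposited table) for each tested gene of the receptor family and of the lists around it, with the median of each list as a bar. The 1 call in the Jak and Stat list is lower, those among target genes all higher, and the 2 highest other receptors have 0 reads in both WT libraries, so their fitted values are no measure of size.

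Markers of other cells that carry these receptors moved as well. By DESeq2, 9.77% of all tested genes were called higher and 3.61% lower. Among 12 natural killer cell genes, 6 were called higher and 1 lower. Their median log2 fold change was 2.32, with 11 above 0. Their summed level was 38904 and 28433 normalized reads in WT and 37183 and 49039 in cTKO. Nearly all of it was Nkg7, which was not called, with 37881 and 27684 in WT and 30142 and 43359 in cTKO. The sum therefore says little of the other genes. Natural killer cells are known for high Il2rb and Il15ra. Klrb1c went from 180 and 119 to 1606 and 881 reads, and Ncr1, the most specific of the list, had 2 and 4 against 22 and 1. Fcer1g, the gene called lower, went from 94 and 41 to 10 and 9 reads (log2 fold change −2.70, DESeq2 adjusted p = 0.00749). Of 13 B cell genes 9 were tested and 4 fell, with sums of 2351 and 2232 in WT and 1282 and 442 in cTKO, and Pax5 had no read in either WT library. Of 14 myeloid and dendritic genes 10 were tested and 2 rose (Itgam and Itgax), with sums of 226 and 199.8 against 2664 and 962. Itgax had the highest mean of the 14, at 685, and Mcpt4 was at 0. Limma called 2 of them higher and 1 lower. Fcgr3, with a mean of 9.15, had −5.19 on the log2 scale (SE 1.92) and just missed the DESeq2 threshold (adjusted p = 0.0503). Of 8 genes of CD4 and regulatory T cells 7 were tested and 1 rose (Zbtb7b), with sums of 369 and 361 against 571 and 329. Cd4 itself had 1, 4, 1 and 0 reads and Foxp3 13, 20, 9 and 9. The part of such cells in the receptor changes was not tested.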

How the data were processed

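Libraries were paired-end, from poly(A) RNA of sorted CD8 T cells, per the labels' protocols. The submitters' processing notes name STAR, DESeq2, mm10 and GRCm38.p6. Counting tool, strand handling and versions: not given in the sources used here. Per the file headers, the authors' mean normalized count is a signal, namely counts scaled by size factors and averaged over the 4 libraries. The authors also deposited, for each gene, a log2 fold change with its SE, a score that equals their quotient (within 2.17e-08), a p-value and an adjusted p-value. Direction was read as cTKO over WT, since the 3 deleted H1 genes are negative; the headers do not state it.

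Whole reads in each library were recovered by finding the 4 whole numbers that give the mean and, in a negative binomial fit, the fold change. This solved 18137 of 18153 genes (99.9%), of which 184, among them Il2rg, Il2rb and Il7r, were decided by the dispersion behind the SE (gap under 0.001 on the log scale). The median fold change error was 2.49e-10 from a mean of 20. On simulated data 1631 of 1634 genes with a mean under 15 and all 1524, 318 and 37 genes from means of 15, 1000 and 10000 were solved rightly. Libraries were matched to the sexes in the labels by Xist and Y-linked reads. Limits from read counts cover counting error only.

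Calls use the authors' adjusted p under 0.05. Alternatives were other mean filters, fold changes relative to the median of genes whose mean reached 100, and limma-trend (version 3.58.1, R 4.3.3) on log2(normalized reads + 0.5) or + 2, with a sex term, or without each library. No count model was refitted to the recovered reads. Members and lists were chosen with earlier results of these data known. Named beside the members are list genes with adjusted p under 0.05, at most 6 per direction and list by p, plus Jak1, Jak3, Stat5a and Stat5b; other list genes, neighbours and markers named were chosen after their values were seen. One relay gene was left out of its list and is not reported here. Exon lengths are GENCODE M21 unions; positions and promoters are RefSeq.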

Additional observations from a re-analysis of the deposited data

Results flagged for a closer look

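For 3 members the female and the male pair of libraries moved in opposite directions, a difference that was not tested. The log2 difference of cTKO minus WT (normalized reads plus 0.5) was 0.86 between the females and −1.06 between the males for Il2ra. For Il9r it was 1.88 and −2.30. For Il4ra it was 0.027 and −0.61. Among all 12956 tested genes with recovered reads, 27.9% had such opposite pairs.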

How the results depend on the processing

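All 3 calls among the members were kept with no filter on the mean, with a minimum mean of 10, with fold changes relative to the median and in limma with a sex term. Limma without it called 1 member (Il2rb) or, with a pseudocount of 2, 2 (Il2rb and Il15ra), and 4 at an unadjusted p under 0.05; with 1 library left out it called 0 to 2. Over all genes it called 1240 with all 4 libraries and 217 to 795 with 1 left out; the authors' test called 1736. Where a genotype then had 1 library, that one was assumed to vary like the pair. The limma log2 difference of Il2ra was −0.096 (−0.078 with a pseudocount of 2, −0.096 with a sex term), and −1.22 to 1.03 with 1 library left out. For Il9r it was −0.21 (−0.21 with a sex term), and −2.16 to 1.75. Stat5a ranged from −0.20 to 0.25 and Stat5b from −0.62 to 0.12 with 1 library left out. These values turned direction against the authors' estimates, and all were short of the threshold. The signs of Il2rb, Il15ra, Il7r, Il2rg, Il4ra and Il21r held in every alternative run. No paired analysis was possible because the animal numbers in the labels differ between the genotypes and do not pair them. The limma fit with a sex term, which matches the libraries by sex, called 2215 genes and 3 members. Its SEs came mostly from a trend over genes, so its calls hardly draw on a gene's own spread. The cause of the lost calls was not tested.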
